A study of Mus musculus with 30 samples.

Results

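Hand2, Tcf21, Snai2, Twist1, Prrx1 and Wt1 are genes of transcription factors that mark the mesenchyme of the embryonic pancreas and the mesothelium that covers it. They were followed with every probe set of 3 array types whose platform annotation gave 1 of these symbols and no other, which found 9 of 36701 probe sets, for 6 of 15964 named genes. Chip A held 6 of the 9 (Hand2, Tcf21, Snai2, Twist1, Prrx1 and Wt1) and chip B held 3 (Hand2 once and Prrx1 on a pair). The tissue was dorsal pancreas dissected from embryos of NMRI mice, an outbred strain, each day between embryonic day 12.5 (e12.5) and e16.5. The labels name no genotype or treatment, so the 5 stages are groups by age alone. Buds of a litter were combined before extraction, and 2 labelling reactions per pool went onto the U74 version 2 set of 3 chips, 30 arrays in all. The labels do not state the number of pools or litters at a stage. Since 2 reactions came from a pool and each stage has 2, every stage was taken to be 1 pool, an assumption under which stage and pool cannot be told apart and the spread between reactions is technical.

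Pancreatic mesenchyme surrounds the epithelial bud and sends signals that keep the epithelial progenitors dividing, and its outer layer, the mesothelium, gives rise to part of the fibroblasts of the organ. Hand2, Tcf21 and Twist1 are basic helix-loop-helix (bHLH) proteins, which bind DNA at E-boxes (CANNTG) as pairs with widely expressed E proteins, and Id proteins hold those E proteins away from DNA. Snai2 is a zinc finger repressor that binds E-boxes and lowers epithelial adhesion genes, Prrx1 is a homeodomain protein of mesenchymal progenitors, and Wt1 is a zinc finger protein of mesothelium and kidney.

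All 6 genes fell from e12.5 to e16.5 by the probe set with the highest mean. Hand2 fell by 2.72 ± 0.12 on the log2 scale and Tcf21 by 2.57 ± 0.22 (fitted change over 4 days ± SE, n = 5 stage means), or 6.58-fold and 5.94-fold. Snai2 fell by 1.99 ± 0.19, Wt1 by 1.14 ± 0.13, Prrx1 by 0.77 ± 0.12 and Twist1 by 0.72 ± 0.13. Prrx1 and Twist1 stayed below their array medians at every stage, and the Twist1 call depends on a single array and a single pool. The fit was a line over embryonic day through the 5 stage means of a chip in limma, with Benjamini-Hochberg adjustment over all 36701 probe sets and a threshold of 0.05. Of the 9 probe sets 8 fell and 1, on chip A for Prrx1, did not pass, against 13.1% of all probe sets. By 1 probe set per gene, 17.0% of all named genes fell and 11.9% rose, and the median change was -1.56 over the 6 factors and 0.02 over all named genes. The factors were chosen with earlier results of these data known, so this count is a description. RNA came from whole buds, so fewer mesenchymal cells and less RNA per cell cannot be told apart.

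The windows around the annotated starts of Hand2, Tcf21 and Prrx1 are shown, the first pair because their falls were the largest among the factors and Prrx1 because its window, like that of Hand2, holds a homeodomain core. Each runs from 250 bases before to 50 bases after the start on the strand of the gene, from the RefSeq table of GRCm38.p6, in which 4 of the 6 genes matched. Capitals mark CANNTG and the homeodomain core TAATTA. Hand2 is read at chr8:57320733-57321032 on the plus strand, Tcf21 at chr10:22820094-22820393 on the minus strand and Prrx1 at chr1:163313601-163313900 on the minus strand, a start inside the span of that gene.
Hand2: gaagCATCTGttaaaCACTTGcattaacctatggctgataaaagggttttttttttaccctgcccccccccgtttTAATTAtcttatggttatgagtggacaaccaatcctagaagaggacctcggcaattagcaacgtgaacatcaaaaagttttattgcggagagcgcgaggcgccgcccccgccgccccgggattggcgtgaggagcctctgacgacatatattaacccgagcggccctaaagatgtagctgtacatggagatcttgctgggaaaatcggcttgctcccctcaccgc
Tcf21: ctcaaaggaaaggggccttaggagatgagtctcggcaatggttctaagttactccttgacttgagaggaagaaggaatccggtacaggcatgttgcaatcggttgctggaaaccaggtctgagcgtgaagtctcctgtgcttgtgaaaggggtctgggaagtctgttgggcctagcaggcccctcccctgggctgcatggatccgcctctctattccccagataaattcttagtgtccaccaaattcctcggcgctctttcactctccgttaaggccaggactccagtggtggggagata
Prrx1: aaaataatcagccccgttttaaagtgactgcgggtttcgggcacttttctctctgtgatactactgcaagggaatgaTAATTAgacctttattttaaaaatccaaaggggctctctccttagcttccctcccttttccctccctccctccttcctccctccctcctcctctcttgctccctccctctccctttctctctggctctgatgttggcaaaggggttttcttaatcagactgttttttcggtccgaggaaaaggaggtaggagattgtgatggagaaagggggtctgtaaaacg
The Hand2 window holds 2 E-boxes, which start at bases 5 and 16, and 1 TAATTA at base 76. The Prrx1 window holds 1 TAATTA at base 78 and no CANNTG, and the windows of Tcf21 and Twist1 hold neither. Both motifs read the same on both strands, and among 32851 windows of this length 72.3% hold a CANNTG and 5.29% a TAATTA. A match is a description of letters and not a site of binding.

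Hand2 encodes a bHLH factor of splanchnic mesenchyme and of sympathetic and enteric neurons. Its gene lies on chromosome 8, 57320983 to 57324517 of GRCm38.p6. Its probe set on chip B (163204_at) gave 10.61 and 10.55 at e12.5, 9.84 and 9.66 at e13.5, 8.99 and 9.02 at e14.5, 8.51 and 8.45 at e15.5 and 7.90 and 7.73 at e16.5 (log2 value, labelling reactions 1 and 2). No array of a stage overlapped an array of another stage, and each stage lay below the one before it. The change of -2.72 had a 95% confidence interval of -2.99 to -2.45 (limma adjusted p = 7.91e-05), the fall of rank 15 among 36701 probe sets. This probe set lay 2.52 above its array medians at e16.5 and 5.31 above them at e12.5.

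The Hand2 probe set on chip A (99914_at) gave 6.91 and 7.05 at e12.5, 6.63 and 6.65 at e13.5, 6.16 and 6.18 at e14.5, 5.86 and 5.71 at e15.5 and 5.38 and 5.79 at e16.5. Its change was -1.46 ± 0.11 (limma adjusted p = 0.000647), and the change on chip B minus that on chip A was -1.26. Its arrays at e15.5 and e16.5 overlapped and lay near the array median. Both probe sets thus gave the same direction, and the size depends on which is read.

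Tcf21, also called capsulin or Pod1, is a bHLH factor of visceral mesenchyme that kidney, lung and spleen need to form, and its gene lies on chromosome 10, 22817263 to 22820143. Its probe set (103050_at, chip A) gave 8.52 and 8.64 at e12.5, 7.92 and 7.82 at e13.5, 7.04 and 6.97 at e14.5, 6.26 and 6.31 at e15.5 and 6.06 and 6.26 at e16.5. The first 4 stages did not overlap, and the arrays of e16.5 reached those of e15.5. The fitted change was -2.57 (95% confidence interval -3.11 to -2.03; limma adjusted p = 0.00103).

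Twist1 is a bHLH factor of cranial and limb mesenchyme, with its gene on chromosome 12, 33957671 to 33959831. Its probe set (98028_at, chip A) gave 5.25 and 5.12 at e12.5, 4.79 in both reactions at e13.5, 4.57 and 4.63 at e14.5, 4.50 and 4.55 at e15.5 and 4.08 and 4.75 at e16.5. All 10 values lay below the median of their array, so expression above background is not shown, and the reactions at e16.5 differed more than those of any other stage. The fall of 0.72 ± 0.13 (limma adjusted p = 0.0104) did not pass without 1 single array or without 1 of the pools. Leaving out e16.5 replicate 1 gave -0.46 (limma adjusted p = 0.141), and leaving out the e12.5 pool gave -0.48 (limma adjusted p = 0.064).

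Snai2, known as Slug, represses E-cadherin in epithelial-mesenchymal transition and in neural crest, and its gene lies on chromosome 16, 14705852 to 14709395. Its probe set (99552_at, chip A) gave 9.06 and 9.16 at e12.5, 8.81 and 8.92 at e13.5, 8.41 and 8.33 at e14.5, 7.44 and 7.51 at e15.5 and 7.38 and 7.25 at e16.5. No stage overlapped another, and the widest gap between neighbouring stages lay between e14.5 and e15.5. The fitted change was -1.99 (95% confidence interval -2.45 to -1.52; limma adjusted p = 0.00145), and the probe set stayed 1.59 above its array medians at e16.5.

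Wt1 marks the mesothelium of the abdominal organs, and its gene lies on chromosome 2, 105126529 to 105173614. Its probe set (93856_at, chip A) gave 5.73 and 5.88 at e12.5, 5.51 and 5.35 at e13.5, 5.18 and 5.15 at e14.5, 4.72 and 4.74 at e15.5 and 4.66 and 4.79 at e16.5. The first 4 stages did not overlap, and e15.5 and e16.5 gave nearly the same mean. From e13.5 on, its means lay below the array median. The fitted change was -1.14 ± 0.13 (limma adjusted p = 0.00267).

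Prrx1 had 3 probe sets, and its gene lies on chromosome 1, 163245119 to 163315145. The brightest (117099_at, chip B) gave 4.62 and 4.42 at e12.5, 4.56 and 4.54 at e13.5, 4.23 and 4.29 at e14.5, 4.07 and 4.10 at e15.5 and 3.91 and 3.66 at e16.5, with e12.5 and e13.5 overlapping. A second set on chip B (116253_at) fell by 0.58 ± 0.11 (limma adjusted p = 0.0088), with stage means of 3.35 at e15.5 and 3.90 at e12.5, and gave -0.52 (limma adjusted p = 0.0697) without the e12.5 pool. The set on chip A (99021_at) kept to stage means of 3.77 to 3.97 and had a change of -0.06 ± 0.12 (95% confidence interval -0.34 to 0.22; limma adjusted p = 0.747). All 3 lay below their array medians at every stage, so the data do not show Prrx1 above background, and its probe sets disagree.

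**Figure D1:**
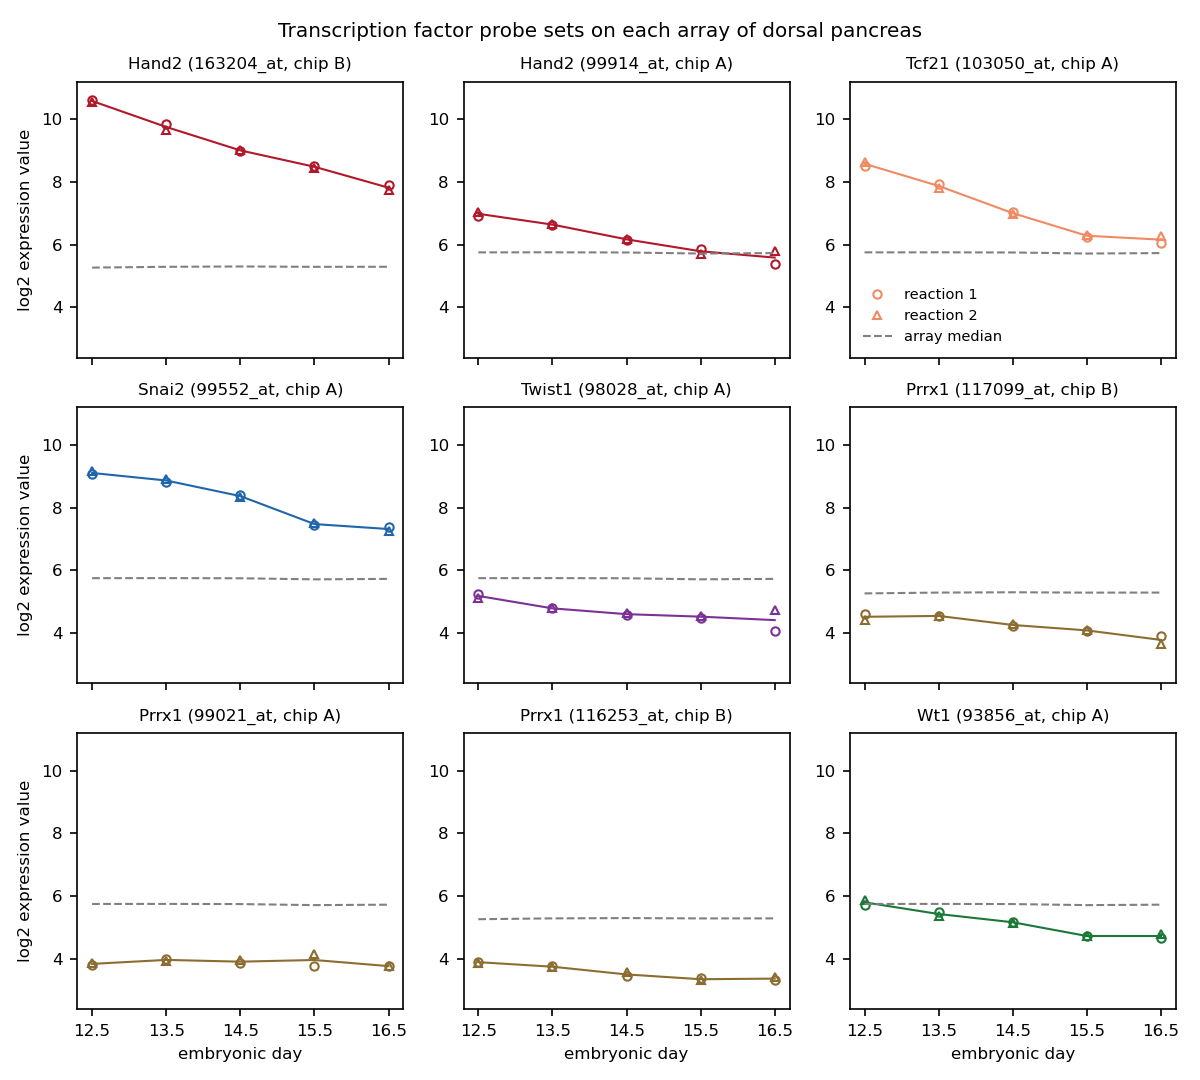
Log2 expression value (vertical axis) by embryonic day (horizontal axis) for the 9 probe sets, with circles for labelling reaction 1, triangles for reaction 2, a line through the stage means and a dashed line at the array median. Hand2 on chip B, Tcf21 and Snai2 descend from well above the median, while Twist1 and the Prrx1 probe sets stay below it at each stage.

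**Figure D2:**
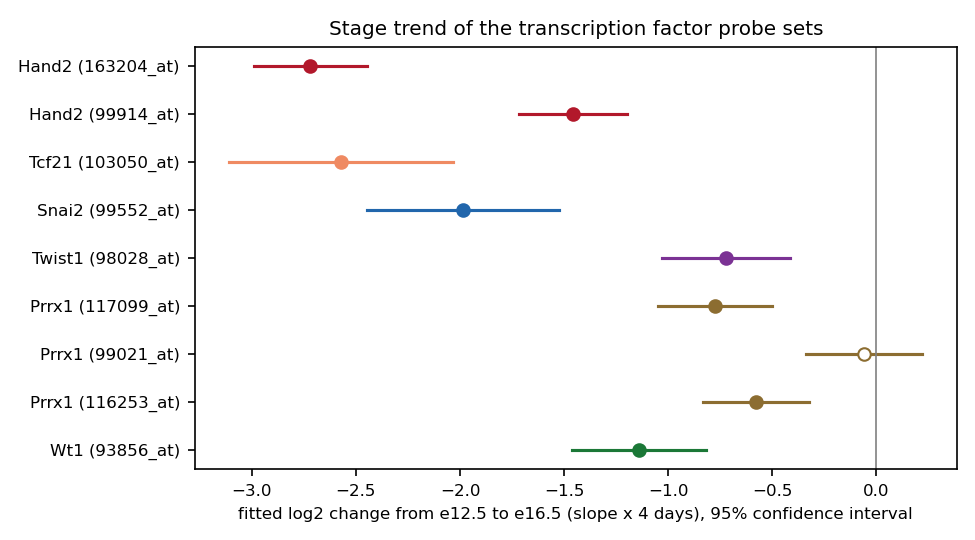
Fitted log2 change from e12.5 to e16.5 (slope times 4 days) for each probe set, with 95% confidence intervals over 5 stage means; filled points passed the threshold and the open one did not. Hand2 on chip B and Tcf21 lie at -2.72 and -2.57, and the interval of Prrx1 99021_at spans 0.

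The ends of the series were then compared array by array, with stage as a factor over the 10 arrays of a chip. Of the 9 probe sets 5 fell by at least 2-fold at e16.5 against e12.5 (limma adjusted p under 0.05), against 3.03% of all probe sets. Hand2 averaged 7.81 ± 0.12 at e16.5 and 10.58 ± 0.04 at e12.5 on chip B (SD, n = 2 reactions each), a difference of -2.76 ± 0.08 (limma adjusted p = 7.78e-13). Tcf21 averaged 6.16 ± 0.14 at e16.5 and 8.58 ± 0.08 at e12.5 (difference -2.42 ± 0.08, limma adjusted p = 4.94e-10). Snai2 (-1.79 ± 0.07), Hand2 on chip A (-1.40 ± 0.11) and Wt1 (-1.07 ± 0.08) were the others. Twist1 (-0.77 ± 0.15) and the chip B probe sets of Prrx1 (-0.74 ± 0.09 and -0.52 ± 0.07) stayed under 2-fold, and by adjusted p alone 8 of the 9 fell, against 23.4% of all probe sets. Without e16.5 replicate 2, Twist1 reached -1.10 and passed 2-fold, and without e16.5 replicate 1 it shrank to -0.44. If each stage is 1 pool, as assumed here, these errors leave out the spread between litters.

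Day by day, 0 of the 9 probe sets fell by 2-fold in any of the 4 consecutive comparisons in limma, where 0.0490% of all probe sets did at e13.5 against e12.5, 0.0245% at e14.5 against e13.5, 0.0708% at e15.5 against e14.5 and 0.114% at e16.5 against e15.5. By adjusted p alone, 3, 4, 4 and 2 of the 9 fell in these steps, against 5.64%, 1.81%, 5.74% and 12.2% of all probe sets. Hand2 on chip B passed in all 4 steps, Tcf21 in the first 3, Snai2 at e14.5 against e13.5 and at e15.5 against e14.5, and Wt1 at e13.5 against e12.5 and at e15.5 against e14.5. The widest of these steps was that of Snai2 at e15.5 against e14.5 (-0.89 ± 0.07, limma adjusted p = 1.43e-05). In the last step Hand2 on chip B had a difference of -0.67 ± 0.08 (limma adjusted p = 3.14e-05). In that step Tcf21 had -0.12 ± 0.08 (limma adjusted p = 0.305), Snai2 -0.16 ± 0.07 (limma adjusted p = 0.151) and Wt1 -0.00 ± 0.08 (limma adjusted p = 0.993). Of the whole difference between e16.5 and e12.5, the step from e14.5 to e15.5 made up 49.9% for Snai2 and 18.9% for Hand2 on chip B. The first step, from e12.5 to e13.5, made up 29.96% for Hand2 on chip B, 29.2% for Tcf21, 34.7% for Wt1 and 13.4% for Snai2. Whether the factors differ in timing was not tested.

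The factors were also set against structural genes of the same tissue layer. On chip A the mean of 21 stroma markers above the array median, collagens and other matrix genes of fibroblasts, was 8.30 at e16.5 and 8.27 at e12.5, with a high of 8.51 at e14.5. Relative to that mean, Tcf21 changed by -2.57 ± 0.22, Snai2 by -1.98 ± 0.22, Hand2 (99914_at) by -1.45 ± 0.22, Wt1 by -1.13 ± 0.22, Twist1 by -0.72 ± 0.22 and Prrx1 (99021_at) by -0.05 ± 0.22. Of these 6 probe sets 5 fell in that fit, against 6.18% of the 24290 probe sets of chips A and C, and no stroma marker on chip B was bright enough to serve. The fit gave all probe sets of a chip 1 common spread, so its p-values do not reflect each gene's own scatter and are not printed. The Twist1 call was lost without e16.5 replicate 1 (-0.45), without the e12.5 pool (-0.30), without the e13.5 pool (-0.79), with collagens alone (-0.69) and with the pool as a random block (-0.72).

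**Figure D3:**
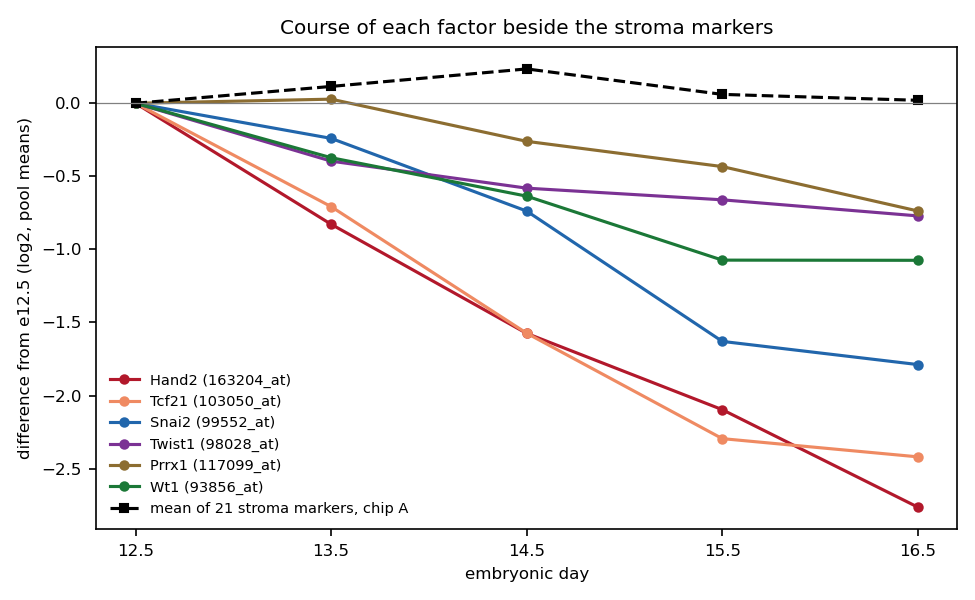
Difference of each stage mean from e12.5 in log2 units (vertical axis) by embryonic day, for the brightest probe set of each factor and, as black squares, the mean of 21 stroma markers on chip A. The stroma mean returns to its starting level, while Hand2 and Tcf21 end at -2.76 and -2.42. The Hand2 and Prrx1 curves are from chip B, and the chip A probe set of Hand2 (99914_at, not drawn) ended at -1.40.

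The single stroma markers went different ways. Of 24 measured, 7 fell, 4 rose and 13 did not pass, with a median change of -0.11. These counts move with single pools and settings, to 2 falls and 2 rises without the e13.5 pool, to 3 falls if that of e16.5 is left out, to 2 rises if that of e12.5 is, and to 7 rises with all probe sets of a gene averaged. The microfibril gene Mfap2 fell by 1.59 ± 0.13, while periostin (Postn) rose by 1.66 ± 0.15 and decorin (Dcn) by 1.29 ± 0.19. Col6a2, a collagen VI chain, rose by 0.96 ± 0.24, and its call was lost without the e12.5 pool (0.60), the e13.5 pool (0.96) or the e15.5 pool (0.87). The collagen I gene Col1a1 had a change of -0.29 ± 0.20 (limma adjusted p = 0.324).

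Among the partners of the bHLH factors, the E protein gene Tcf12 fell by 1.37 ± 0.15 and Tcf4 by 0.97 ± 0.10, with other probe sets of both that did not pass. Tcf3, the third E protein gene, had a change of 0.00 ± 0.10 (limma adjusted p = 0.989). Of the 4 Id genes, whose proteins block E proteins, 3 fell and 1 did not pass. Id3 fell by 1.46 ± 0.15, Id2 by 0.67 ± 0.10 and Id1 by 1.14 ± 0.24, and Id1 did not pass without the e13.5 pool (-1.12) or the e16.5 pool (-0.60). Partners and inhibitors of the bHLH factors thus both had members that fell.

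Of 12 close relatives of the factors and other factors of epithelial-mesenchymal transition, 4 fell, 1 rose and 7 did not pass, with a median change of -0.25. The falls were in Zeb1 (-0.88 ± 0.21), Prrx2 (-0.76 ± 0.16), Snai1 (-0.56 ± 0.13) and Tcf15 (-0.40 ± 0.09). These calls are not stable: leaving out the e13.5 pool left 0 falls, leaving out that of e12.5 left 1 and leaving out that of e15.5 left 2, and the 1 rise was lost without any 1 of the pools. With all probe sets of a gene averaged, Zeb1 had -0.24 (limma adjusted p = 0.08) and Prrx2 -0.22 (limma adjusted p = 0.133). A second Zeb1 probe set had 0.41 and did not pass, and a second Prrx2 probe set rose by 0.33. Of 28 other factors of gut and spleen mesenchyme, 8 fell, 1 rose and 19 did not pass (median change -0.20). Nr2f1, an orphan nuclear receptor, fell by 2.50 ± 0.23, with stage means of 6.19 at e12.5, 5.19 at e13.5, 4.61 at e14.5, 3.89 at e15.5 and 3.71 at e16.5. Osr1, a zinc finger factor of intermediate and lateral mesoderm, fell by 1.34 ± 0.11, and the T-box repressor gene Tbx2 had -1.27 ± 0.12 and Nr2f2 -1.07 ± 0.12. Large falls therefore occurred in single genes of this list, and 19 of its 28 genes had no passing slope.

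Surface and signal genes of mesenchyme had 13 falling members of 32, 1 rising and 18 that did not pass (median change -0.25). The number of falls ran from 8 to 17 under alternative settings. Among the counted falls, Igf1 had chip A probe sets that rose, by 0.99 ± 0.19 and 0.49 ± 0.11. Wnt2 had a chip B set that rose by 0.43 ± 0.11. Rdh10, which makes retinaldehyde for retinoic acid synthesis, fell by 2.65 ± 0.18, and 1 of the 4 Rdh10 probe sets did not pass. The growth factor gene Mdk fell by 2.34 ± 0.35 and the ligand gene Wnt5a fell by 1.97 ± 0.22. The integrin gene Itga8 fell by 2.58 ± 0.54 on the brightest of its 3 probe sets alone, and without the e12.5 pool it gave -1.83 (limma adjusted p = 0.106). In the smooth muscle and pericyte list 2 of 10 fell, Rgs5 by 0.91 ± 0.13 and Actg2 by 0.57 ± 0.10, and Actg2 gave -0.46 without the e12.5 pool and did not pass.

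Mesothelium markers other than Wt1 split, with 6 falling, 5 rising (3 without the e16.5 pool) and 6 not passing of 17. Igfbp2, a binding protein of insulin-like growth factors, fell by 1.67 ± 0.18 and the glypican gene Gpc3 by 1.18 ± 0.13. The largest rises were in Krt18 (2.08 ± 0.09) and Krt19 (1.49 ± 0.17), keratin genes that duct and acinar epithelium express as well. The summed level of the 11 such markers on chip A was 11.67 to 11.68 on the e16.5 arrays and 11.58 to 11.60 on the e12.5 arrays (log2 of the summed linear values), but the keratins carry that sum. Without Krt8, Krt18 and Krt19, a choice made after seeing the data, the other 8 markers summed to 10.28 at e16.5 and 11.18 at e12.5. Gpc3 (10.44 at e12.5 and 9.35 at e16.5) and Igfbp2 (8.54 and 6.85) carry most of that difference. Msln, also among the 8, rose by 0.47 ± 0.10, so the sum does not show a shared course of mesothelium markers.

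Genes that Snai or Twist proteins are known to repress were read by 1 probe set per gene, with N-cadherin as the one that Twist1 is known to raise. Of 12 genes, 3 rose, 1 fell and 8 had no passing slope, with 7 rises when the e16.5 pool was left out. Among the 8, another probe set rose for Epcam (0.95 ± 0.18), Cldn3 (0.60 ± 0.14) and Ocln (0.39 ± 0.11). The remaining sets of those genes did not pass. Muc1, a mucin of the apical membrane, rose by 2.72 ± 0.14 and the integrin gene Itgb4 by 1.15 ± 0.13. Cdh1 (E-cadherin) rose by 0.39 ± 0.09, and that call was lost without the e12.5 pool (0.40), the e13.5 pool (0.37) or the e16.5 pool (0.39). Cdh2 (N-cadherin) was the gene that fell, by 2.31 ± 0.31, with stage means of 7.02 at e12.5, 6.41 at e13.5, 5.70 at e14.5, 4.72 at e15.5 and 4.98 at e16.5. Acinar markers rose over the same days, and the part of epithelial growth or of Snai2 in these changes was not tested.

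**Figure D4:**
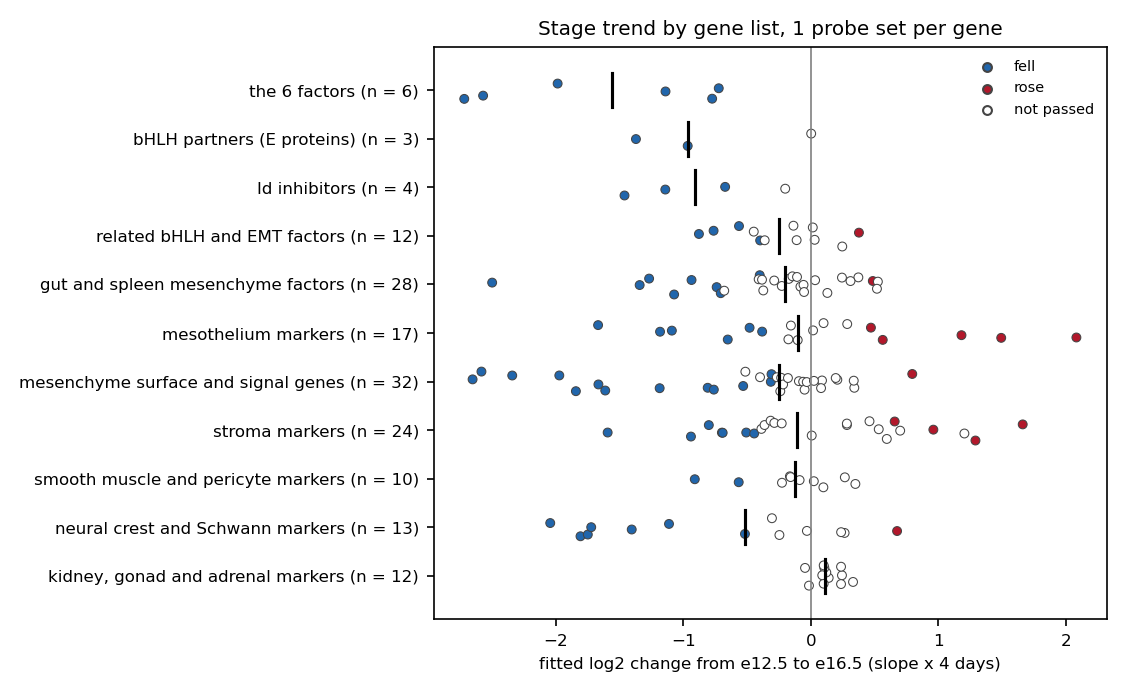
Fitted log2 change from e12.5 to e16.5 for each gene by list, 1 probe set per gene, with the 6 factors left out of the other lists; blue points fell, red points rose, white points did not pass, and black bars are medians. The median is -1.56 for the 6 factors, -0.11 for the stroma markers and 0.11 for kidney, gonad and adrenal markers.

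Markers of other cell types moved in the same samples. All 14 acinar markers rose, and their summed level on chip A (8 genes) was 15.95 to 15.99 on the e16.5 arrays, against 10.42 to 10.46 on the e12.5 arrays. The stroma marker mean of the same arrays differed by 0.02 between e16.5 and e12.5, a mean over markers that fell and markers that rose. The part of the acinar shift in the factors' falls was not tested. Neural crest and Schwann cell genes, of interest because Hand2 is also a gene of peripheral neurons, had 7 falling members of 13 besides Hand2, 1 rising and 5 not passing. Gap43, a growth cone gene, fell by 2.04 ± 0.16, the neurofilament gene Nefm by 1.81 ± 0.23 and the endothelin receptor gene Ednrb by 1.75 ± 0.26. The glial and neural crest factor gene Sox10 had a change of 0.24 ± 0.12 (limma adjusted p = 0.178). The summed level of the 8 neural genes on chip A was 9.69 to 9.72 at e16.5 and 10.44 to 10.46 at e12.5, and its part in the fall of Hand2 was not tested. Of 12 kidney, gonad and adrenal markers, tissues that also express Wt1 or Tcf21, 0 passed in limma's fit, 4 rose at an unadjusted p under 0.05, and their changes lay between -0.05 and 0.33. Endothelial markers had 4 falling and 1 rising of 12 and endocrine markers 2 falling and 4 rising of 11. Stomach and gut markers had 4 rising of 11, and spleen and leukocyte markers 1 rising of 9. In the stomach and gut list, second probe sets of Barx1 (-1.74 ± 0.09) and Tff1 (-0.30 ± 0.08) fell, while their brightest sets did not pass. Several of these small counts turn on single arrays or pools. Endothelial falls were 2 without e12.5 replicate 2, e14.5 replicate 2 or the pool of e12.5, e13.5 or e15.5, and endothelial rises were 3 without e12.5 replicate 1. Endocrine falls were 0 without the e16.5 pool and 4 without the e12.5 pool. Stomach and gut rises were 2 without e12.5 replicate 1, e14.5 replicate 1 or the e12.5 pool and 1 without the e16.5 pool, and the spleen and leukocyte rise was lost without the e16.5 pool, where 2 fell.

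The genes whose course over the 5 stages was most like that of each factor were found by the root mean square (RMS) difference between stage means centred on their own mean, among 10514 or 10515 other named genes above their chip median. Closest to Hand2 were Myh10, a nonmuscle myosin heavy chain gene (RMS difference 0.103 log2 units), Tril (0.144) and 6330403K07Rik (0.145). Closest to Tcf21 were Pdzrn3 (0.0715), the SoxC factor gene Sox11 (0.0925) and Tril (0.0974). Snai2 was most like Asxl3 (0.124), the adhesion gene Ncam1 (0.131) and the homeobox gene Hoxa5 (0.132). Wt1 was most like Wnk3 (0.00972), Lhfp (0.0216) and Rnf157 (0.0351). The dim probe sets of Twist1 and Prrx1, with their small ranges, lay nearest Emsy (0.0203), Oip5os1 (0.0314) and Rab31 (0.0316), and Ctdsp2 (0.0195), Tbc1d14 (0.0269) and Trp53i11 (0.0305). Each gene was read by its brightest probe set, and other sets did not always follow. The other sets of Rnf157 (0.05 and 0.06), Myh10 (-0.19) and Pdzrn3 (0.02) did not pass. Those of Tril (-0.74 and -1.27) fell, as did 3 of the 4 other sets of Sox11. Among the factors themselves, Hand2 on chip B and Tcf21 differed by 0.178 and Hand2 on chip A and Wt1 by 0.127. Chips were normalized separately, so this search set only courses and not levels across them, and 5 stages leave such likeness as a description.

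Array quality bears on these values as follows. Array medians ran between 5.71 and 5.76 on chip A and between 5.26 and 5.31 on chip B, and Pearson's r between reactions 1 and 2 of the same stage was 0.996 to 0.998 across probe sets. The deposited values come without detection calls, so the array median stands in here for a dim level.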

How the data were processed

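Expression values on the log2 scale were deposited by the authors, who made them with RMA according to the submitters' processing notes; the log base was inferred from the range of the values. RMA subtracts background, gives the arrays a common distribution and combines the probes of a set, so differences in total RNA are removed. Each chip had a table of its own and was fitted alone. Gene symbols came from the platform annotation and were updated by Entrez identifier to the RefSeq table of GRCm38.p6. This left 29131 probe sets with 1 symbol, 724 with several, none of which held a factor described here, and 6846 with none.

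Fits used limma 3.58.1 in R 4.3.3. The stage trend is the slope per day over the 5 stage means, times 4 days. In contrasts, stage was a factor over the 10 arrays of a chip, with a 2-fold minimum. Where a gene had several probe sets, the brightest on average stands for it. That choice compared mean log2 values across chips, although the chips were normalized separately. The relative trend first subtracts the mean of the stroma markers above their chip median. The factors and gene lists were chosen with earlier results of these data known. Besides the factors, genes were named as the 3 most alike in course, as up to 4 with the largest passing slope in a list, or as defining markers. Tcf3, Meis1, Gata4, Barx1, Igf1, Wnt2, Epcam, Cldn3, Ocln and Tff1 fall outside that rule and were named after their values were seen. The functions were tested on simulated data. With 2 arrays per group, no sample could be screened as outlying, and the number of arrays limits the precision. The reaction numbers did not pair the samples: differences between reactions 1 and 2 correlated between stages with medians of -0.01 on chip A, 0.02 on chip B and -0.00 on chip C.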

Additional observations from a re-analysis of the deposited data

How the results depend on the processing

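Of the 9 probe sets 8 fell in the stage trend, and 7 to 8 when any 1 array was left out. With bright probe sets only, 4 fell, and these, of Hand2, Tcf21 and Snai2, were all that this setting kept. Relative to the stroma markers 5 fell, 4 to 5 without any 1 array and 3 with bright probe sets only, again all that were kept. The falls of Hand2, Tcf21, Snai2 and Wt1 in the stage trend passed under each alternative run that kept their probe sets, and Tcf21 ran between -3.10 and -2.34. For e16.5 against e12.5 the 5 calls became 8 with no fold minimum and 5 to 6 without any 1 array. With a 1.5-fold minimum the 0 calls of the consecutive steps became 2, 2, 2 and 1 in order of stage, and with no minimum 3, 4, 4 and 2. With the replicate block, a line over 10 arrays treated the 2 reactions of a stage as independent, although they were taken to share a pool. It called 8 of the 9 probe sets, Hand2 on chip B at -2.72. In all it called 7313 falling and 7580 rising probe sets, against 4825 and 3886 in the main fit. Without the e16.5 pool these were 2278 and 1275, and without the e12.5 pool the rises were 1874. A random pool block gave 5425 rises, and without the e13.5 pool there were 2207. Signs turned for values that had not passed. The Prrx1 set 99021_at ran from -0.14 to 0.023 in the stage trend without single arrays and had 0.13 without the e16.5 pool. Its relative trend ran from -0.14 to 0.038, with 0.0059 without the e16.5 pool and 0.056 with the median of the stroma markers. Without single arrays it ran from -0.15 to 0.25 at e15.5 against e14.5 and from -0.40 to 0.0062 at e16.5 against e15.5. Prrx1 117099_at at e13.5 against e12.5 had -0.0383 with quantile normalization, -0.0438 with cyclic loess and -0.071 to 0.127 without single arrays. Prrx1 116253_at at e16.5 against e15.5 had -0.0535 and -0.0538 with those scalings and -0.020 to 0.060 without single arrays. In that step and without single arrays, Hand2 99914_at ran from -0.41 to 0.00373, Twist1 from -0.44 to 0.22 and Wt1 from -0.066 to 0.063. Col1a1 had 0.14 without the e16.5 pool and Sox10 -0.091 with all probe sets averaged. Tcf3 had -0.15 without the e16.5 pool, -0.00424 without the e13.5 pool and -0.065 to 0.070 without single arrays. Of the list genes 58 fell, and 40 to 69 under the alternatives. Stroma markers had 2 to 8 falls and 2 to 10 rises, against 7 and 4. The cause of these shifts was not tested.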
